A study of Mus musculus with 2 samples.

Results

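The genes described here are 8 glucocorticoid-inducible genes (Fkbp5, Tsc22d3, Ddit4, Sgk1, Klf9, Pdk4, Errfi1 and Zbtb16) and the metallothionein genes Mt1 and Mt2, 10 of 22791 genes in a table of splenic 3′mRNA counts. They were chosen by name, and each name matched 1 row. Spleens were from male C57BL/6J mice, 9 to 11 weeks of age, that were fasted for 10 h before treatment. The spleens were taken 30 h after an intraperitoneal injection of 300 mg/kg acetaminophen (APAP) or of the vehicle, 0.9% NaCl (ctrl). From the injection on, all mice had free access to food. RNA of 11 APAP-treated and of 5 vehicle-treated mice was pooled in equal shares per group, and each pool gave 1 library made by massive analysis of cDNA ends (MACE). The spread between mice is therefore not in the data, no p-value is given, and every interval is a 95% interval of counting error. All mice were wildtype, and fasting and injection were common to both groups.

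Glucocorticoids released from the adrenal cortex bind the glucocorticoid receptor in the cytosol, where chaperones of the Hsp90 family hold it ready. The receptor then enters the nucleus and binds glucocorticoid response elements (GREs) near its target genes. In leukocytes its targets include brakes on inflammation and on growth, and in lymphocytes also mediators of cell death. Metallothioneins are small proteins that bind zinc and copper through cysteines. Their genes respond to metals through the transcription factor Mtf1 and metal response elements (MREs), and they respond to glucocorticoids and to inflammatory cytokines as well.

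In ctrl 2735788 counts were assigned to genes, in APAP 2890947. Ratios below are counts of APAP over ctrl after division by the DESeq2 size factors 0.949 and 1.05, and levels are CPM, the counts of a gene scaled to a common library total. Because MACE reads come from the 3′ end of a transcript, levels of different genes can be compared without division by length. All 10 B cell genes searched for as a check of the tissue were detected, with 0.574% of ctrl counts and 0.509% of APAP counts. Their detection cannot show that other tissue was absent. Pancreas genes took 7.14% of ctrl counts and 2.16% of APAP counts. In bulk RNA, fewer cells of a type and less RNA per cell cannot be told apart.

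Of the 10 genes, 9 had at least 20 counts over both libraries, Zbtb16 being the exception. In the APAP library Fkbp5, Ddit4 and Mt2 were higher, with intervals above 1, at ratios of 1.65, 1.29 and 1.38. Mt1, Sgk1 and Errfi1 had ratios of 1.12 to 1.31 with intervals that include 1, and so did Tsc22d3, Klf9 and Pdk4 at 0.999, 0.933 and 0.712. Thus 3 of 9 genes had an interval above 1, where 9.13% of all 12929 genes with 20 counts did. None had an interval below 1, against 6.57% of all genes. None of the 9 reached a ratio of 2 in either direction with an interval that excludes 1 (all genes: 1.39% higher and 1.68% lower). The median log2 ratio of the 9 genes was 0.24, beside 0.02 for all genes, and 6 of the 9 were above 1, beside 53.2% of all genes. These shares of all genes are the background for the counts of every list below. They are not matched by count, and an interval excludes 1 more readily in a gene with many counts. Several of the 9 genes have many counts, with ranks in ctrl of 504 for Tsc22d3 and 921 for Ddit4. The number above 1 depends on the scaling. It was 5 with library totals, which add Mt1 and Errfi1 (all genes: 14.0%), and 6 when haemoglobin and immunoglobulin genes were taken out of the totals, which adds Sgk1 (all genes: 15.4%).

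**Figure D1:**
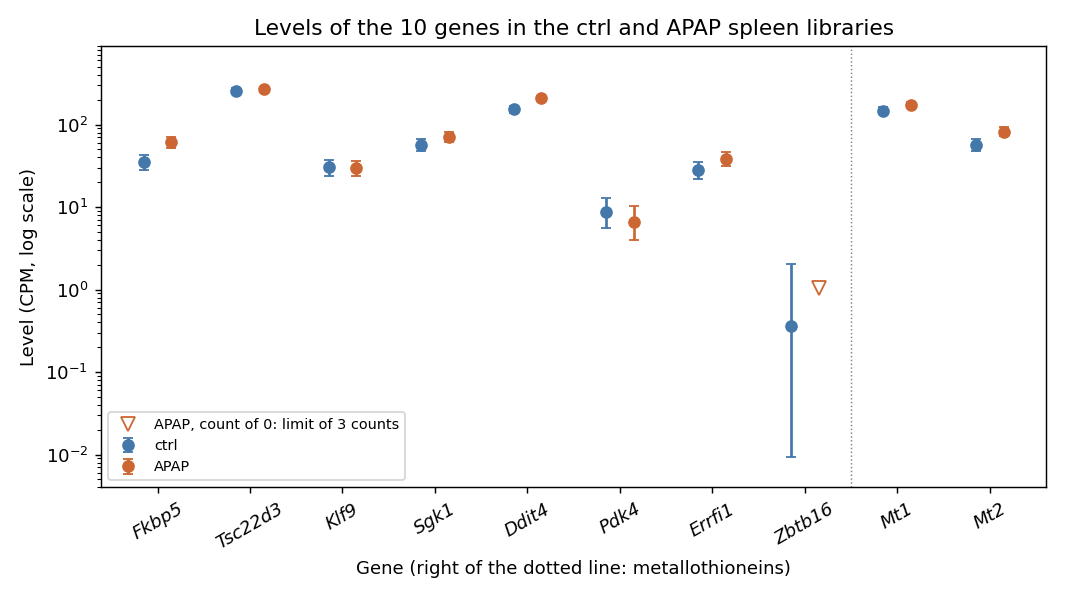
Levels of the 10 genes in each library in CPM on a log scale, with exact 95% Poisson intervals, the 8 glucocorticoid-inducible genes on the left and the metallothioneins on the right. The intervals of both libraries do not overlap for Fkbp5 (35.1 and 60.9 CPM), Ddit4 (154 and 208 CPM) and Mt2 (56.7 and 82.0 CPM). Tsc22d3 has the highest level in both. The open triangle marks 1.04 CPM, the limit of 3 counts set for the count of 0 of Zbtb16 in APAP.

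Fkbp5 encodes an immunophilin that binds Hsp90 in the receptor complex, lowers the affinity of the receptor for hormone and thereby closes a feedback loop. It had 96 counts in ctrl and 176 in APAP, which are 35.1 CPM (interval 28.4 to 42.9) and 60.9 CPM (52.2 to 70.6). The level was higher in APAP and the intervals of both libraries do not overlap. The ratio was 1.65 (1.28 to 2.14), and 4.69% of all genes with 20 counts had a higher one. Of the 9 genes, only Fkbp5 had a ratio of at least 1.5 and an interval above 1, as did 3.67% of all genes. Its rank by count among all genes was 4999 in ctrl and 3118 in APAP. The closest relative in the receptor complex, Fkbp4, a cochaperone that promotes receptor activity, had 268 and 273 counts and a ratio of 0.917 (0.772 to 1.09).

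Among the transcriptional regulators, Tsc22d3 encodes GILZ, a leucine zipper protein that restrains NF-kB and AP-1 in leukocytes. It had the highest level of the 10 genes, with 699 and 776 counts or 256 and 268 CPM. The normalised level was the same in both libraries within counting error, with a ratio of 0.999 (0.901 to 1.11). Its relative Tsc22d1 had 316 and 437 counts and a ratio of 1.24 (1.07 to 1.44), whereas Tsc22d4 was at 1.09 (0.943 to 1.26) and Tsc22d2 at 0.845 (0.643 to 1.11).

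Klf9, a zinc finger repressor that also couples glucocorticoid and clock signals, had 83 and 86 counts, 30.3 CPM in ctrl and 29.7 CPM in APAP. The ratio of 0.933 (0.682 to 1.28) shows no difference detectable at this depth. In the same family Klf10, a gene induced by TGF-beta, had 37 and 70 counts (1.70, 1.13 to 2.61), and Klf16 had 58 and 94 (1.46, 1.04 to 2.06). Klf13, with 277 and 282 counts (0.916, 0.773 to 1.09), and Klf11, with 17 and 11 (0.582, 0.247 to 1.32), were below 1 with intervals that include 1. Zbtb16 encodes PLZF, the transcription factor of innate-like lymphocytes and a sensitive glucocorticoid target in other tissues. It had 1 count in ctrl, or 0.366 CPM (interval 0.00925 to 2.04), and 0 in APAP (interval up to 1.28 CPM). The limit of 3 counts set here for a count of 0 is 1.04 CPM in APAP. No difference was detectable at this depth, and no ratio is given. Of 9 measured genes of innate-like T cells, 8 were below 1 with a median log2 ratio of -0.58, and the size rule (20 counts, ratio of 2 either way, interval excluding 1) was met by Gata3 (46 and 23 counts; 0.450, 0.260 to 0.758) and Icos (45 and 23; 0.460, 0.266 to 0.777), both lower. This was not particular to that list. General T cell genes (median -0.46) and NK cell genes (-0.54), which share Klrb1c with it, were lower too.

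The next group acts in signalling. Ddit4 encodes REDD1, an inhibitor of the growth kinase complex mTORC1 that glucocorticoids, hypoxia and amino acid stress induce. It had 420 and 601 counts, 154 CPM (139 to 169) in ctrl and 208 CPM (192 to 225) in APAP. The intervals of both libraries do not overlap, and the ratio was 1.29 (1.14 to 1.46). Of 10 measured genes of hypoxia and amino acid stress, none had an interval above 1 (all genes: 9.13%, which leaves a count of 0 in so few genes without weight) and 3 had one below 1 (all genes: 6.57%), namely Chac1 (17 and 6; 0.318, 0.103 to 0.844), which met the size rule, Asns (106 and 74; 0.628, 0.460 to 0.853) and Atf4 (512 and 494; 0.868, 0.766 to 0.985), the last 2 chosen after their values were seen. The sign of that list's median of -0.06 changed with the scaling. With library totals the interval of Atf4 includes 1.

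Sgk1 encodes a serine/threonine kinase that regulates ion channels and FOXO factors. It had 156 and 204 counts, 57.0 CPM (48.4 to 66.7) and 70.6 CPM (61.2 to 80.9). The intervals overlap and the ratio of 1.18 (0.951 to 1.46) includes 1. Its relative Sgk3 had 121 and 109 counts (0.811, 0.620 to 1.06). Errfi1 encodes MIG6, which binds and inhibits the EGF receptor. It had 77 and 112 counts, 28.1 CPM (22.2 to 35.2) and 38.7 CPM (31.9 to 46.6), with a ratio of 1.31 (0.971 to 1.77). The ratio was higher than that of Ddit4 but rests on fewer counts, and its interval includes 1. Of the EGF receptors and ligands only 3 had 20 counts, none with an interval that excludes 1. Egfr itself had 18 and 23 counts (1.15, 0.594 to 2.26) and the ligand gene Hbegf 12 and 21 (1.57, 0.740 to 3.51).

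Pdk4 encodes a kinase that switches off pyruvate dehydrogenase during fasting and is a target of PPAR and FOXO factors as well as of glucocorticoids. It had 24 and 19 counts, 8.77 CPM (5.62 to 13.1) and 6.57 CPM (3.96 to 10.3). Its ratio of 0.712 (0.369 to 1.36) was the lowest of the 9 but the least precise. Among 13 measured fasting and PPAR targets 12 were above 1 (all genes: 53.2%), with a median log2 ratio of 0.22, and none met the size rule. Hadha, an enzyme subunit of mitochondrial fat oxidation, had 215 and 279 counts (1.17, 0.974 to 1.40), and Acadl, a dehydrogenase of the same pathway, had 176 and 220 (1.12, 0.919 to 1.38). The interval of 1 of the 13 lay above 1, a share near the 9.13% of all genes. This was Angptl4 (45 and 79; 1.58, 1.08 to 2.33), which was named after its value was seen and which encodes an inhibitor of lipoprotein lipase. The other kinases of the family were not set apart either, Pdk1 at 0.940 (0.737 to 1.20) and Pdk3 at 1.25 (0.878 to 1.80).

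**Figure D2:**
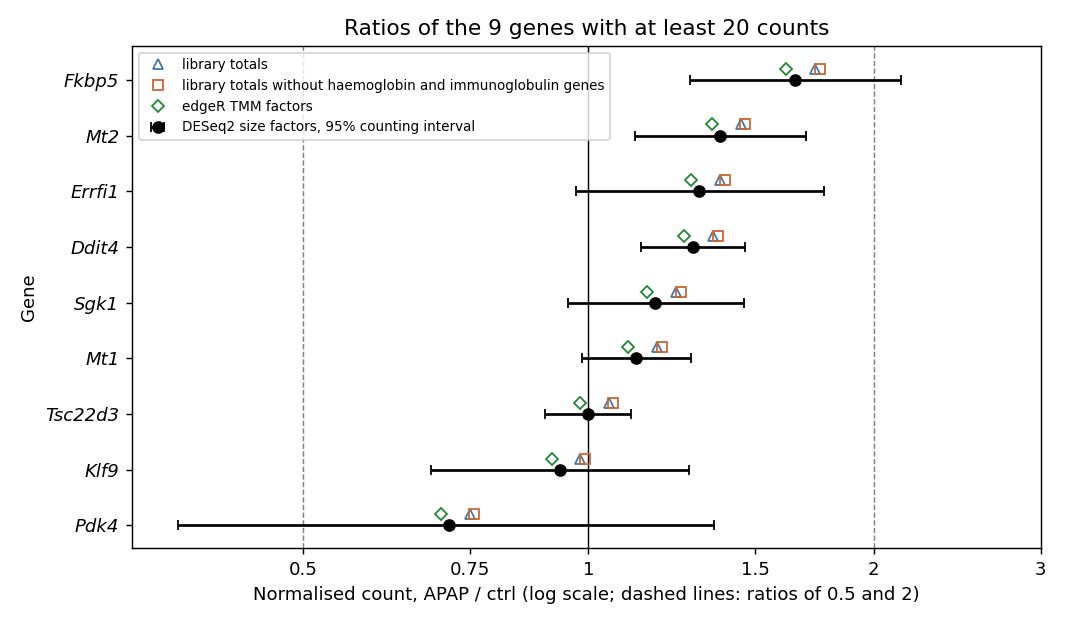
Ratio of normalised counts APAP over ctrl of the 9 genes with at least 20 counts on a log scale, sorted by ratio, with 95% counting intervals (black) and the ratio under 3 other scalings (open symbols). Fkbp5, Mt2 and Ddit4 lie above 1 with their whole interval, Tsc22d3 lies at 1, and no gene reaches a ratio of 2 (dashed line).

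The metallothionein genes lie side by side on chromosome 8, and Mt2 (94172664 to 94173568, plus strand, build GRCm38) is followed after 5513 bases by Mt1 (94179082 to 94180327). Mt3 and Mt4, which serve brain and squamous epithelium, lie upstream in the same cluster. Of these, Mt3 had 1 count in ctrl and 0 in APAP, and Mt4 had no row under its name among the counted genes. The coding sequences of Mt1 and Mt2 are shown because they make visible why the proteins bind metal and how alike the genes are. Capitals mark cysteine codons, 20 of 61 in each gene (32.8%), and all 20 stand at the same positions. Of 183 bases 145 are identical (79.2%), without the stop codon. The reads come from the 3′ end, and in the last 150 bases of both transcripts the longest shared run was 10 bases.
Mt1 coding sequence, GENCODE M21: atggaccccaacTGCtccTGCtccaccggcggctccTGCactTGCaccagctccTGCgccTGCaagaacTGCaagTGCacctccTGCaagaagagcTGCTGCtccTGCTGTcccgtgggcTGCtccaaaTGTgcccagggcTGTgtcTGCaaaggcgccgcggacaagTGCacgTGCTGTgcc
Mt2 coding sequence, GENCODE M21: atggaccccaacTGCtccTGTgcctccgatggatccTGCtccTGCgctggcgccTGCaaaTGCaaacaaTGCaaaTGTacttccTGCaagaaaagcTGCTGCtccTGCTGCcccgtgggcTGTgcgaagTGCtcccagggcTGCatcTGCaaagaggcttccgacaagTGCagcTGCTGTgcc

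Mt1 had 403 and 503 counts, 147 CPM (133 to 162) in ctrl and 174 CPM (159 to 190) in APAP, with a ratio of 1.12 (0.983 to 1.28). Mt2 had 155 and 237 counts, 56.7 CPM (48.1 to 66.3) and 82.0 CPM (71.9 to 93.1), with a ratio of 1.38 (1.12 to 1.70). Both genes were above 1, and the interval of Mt2 excludes 1. Summed, they had 558 and 740 counts and a ratio of 1.19 (1.07 to 1.33). Mt1 made up 72.2% of the counts of both genes in ctrl (exact interval 68.3 to 75.9) and 68.0% in APAP (64.5 to 71.3). This share does not depend on the scaling, and the intervals overlap. An exon of the antisense gene Gm45774 overlaps Mt2, and that gene had 1 count in ctrl and 0 in APAP. The strand setting of the counting is not given in the sources used here.

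Genes of zinc and metal handling gave 20 measured members, of which 14 were above 1 (all genes: 53.2%) with a median log2 ratio of 0.17. None met the size rule. Only 1 of the 20 had an interval above 1, which is no larger a share than the 9.13% of all genes, namely the zinc importer gene Slc39a1 (243 and 323 counts; 1.20, 1.01 to 1.42). That interval includes 1 with another scaling of the libraries. Slc30a5, a zinc transporter of the secretory pathway, had 148 and 184 counts (1.12, 0.896 to 1.40). Slc30a1, the zinc exporter gene that Mtf1 controls together with the metallothioneins, had 74 and 107 counts and a ratio of 1.30 (0.959 to 1.77), and Mtf1 itself had 30 and 42 (1.26, 0.770 to 2.08). The intervals of both include 1, and both were named after their values were seen.

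The promoter windows in RefSeq (build GRCm38.p6, 250 bases before to 50 after each annotated start) held 9 of the 10 genes in 17 windows, Zbtb16 being without an entry. They were searched on both strands for the full GRE, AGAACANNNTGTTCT, for its 6-base arm AGAACA, which is part of the full GRE, and for the MRE core TGCACNC or TGCGCNC. The full GRE occurred in 1 of the 17 windows and in 3 of all 32851 (0.00913%). It lies 175 to 189 bases before 1 of 6 annotated starts of Sgk1. The arm alone was found in 4 windows, those of Sgk1 and Tsc22d3 (all windows: 19.0%). MRE cores were found in the windows of Mt1 (3), Mt2 (4), Ddit4 (1) and Sgk1 (1), and 25.7% of all windows held at least 1, 1.97% at least 3 and 0.517% at least 4. Part of the cores of Mt1 and Mt2 lie behind the annotated start and are not printed. The 250 bases before the start are shown for these windows since they hold the elements in question, with capitals marking the GRE or the MRE cores. A match to these letters is no evidence of binding, and a window without one says nothing of elements elsewhere.
Sgk1, chr10:21993640-21993889, plus strand, GRE in capitals: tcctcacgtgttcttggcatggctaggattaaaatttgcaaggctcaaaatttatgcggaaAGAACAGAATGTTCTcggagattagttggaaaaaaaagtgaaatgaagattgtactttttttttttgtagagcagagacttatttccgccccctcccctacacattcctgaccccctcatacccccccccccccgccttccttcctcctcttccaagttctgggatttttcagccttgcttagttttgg
Mt1, chr8:94178839-94179088, plus strand, MRE core in capitals: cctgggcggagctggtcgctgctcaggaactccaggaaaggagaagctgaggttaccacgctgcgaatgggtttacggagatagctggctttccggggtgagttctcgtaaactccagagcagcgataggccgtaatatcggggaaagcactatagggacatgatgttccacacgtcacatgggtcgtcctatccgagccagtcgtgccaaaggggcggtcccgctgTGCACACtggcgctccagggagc
Mt2, chr8:94172368-94172617, plus strand, MRE cores in capitals: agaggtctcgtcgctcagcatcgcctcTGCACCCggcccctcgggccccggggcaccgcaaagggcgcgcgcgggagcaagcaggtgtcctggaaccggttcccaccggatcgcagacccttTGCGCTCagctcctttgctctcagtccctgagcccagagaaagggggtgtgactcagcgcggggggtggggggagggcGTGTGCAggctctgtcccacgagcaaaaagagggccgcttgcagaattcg

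Sgk1, the gene with the full GRE, had a ratio of 1.18 with an interval that includes 1, and Fkbp5, without any of these motifs in its window, had the highest ratio. A relation of motifs to ratios was not tested, nor was the annotated start that is used in spleen. The other 8 genes lie on chromosomes 17 (Fkbp5, 28399094 to 28517527, minus strand), X (Tsc22d3, 140539528 to 140600659, minus), 10 (Ddit4, 59949669 to 59951834, minus, and Sgk1, 21882184 to 21999903, plus), 19 (Klf9, 23141226 to 23168134, plus), 6 (Pdk4, 5483351 to 5496309, minus), 4 (Errfi1, 150853919 to 150868892, plus) and 9 (Zbtb16, 48654297 to 48836222, minus). None of these 8 shares an exon position with another gene in GENCODE M21.

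By level, the order in ctrl was Tsc22d3, Ddit4, Mt1, Sgk1, Mt2, Fkbp5, Klf9, Errfi1, Pdk4 and Zbtb16. Neighbours in that order that did not differ beyond counting error were Ddit4 and Mt1, Sgk1 and Mt2, Fkbp5 and Klf9, and Klf9 and Errfi1. In APAP Ddit4 exceeded Mt1 (54.4% of the counts of both, exact interval 51.4 to 57.4), Mt2 stood before Sgk1 and Errfi1 before Klf9. Mt2 and Sgk1, Sgk1 and Fkbp5, and Errfi1 and Klf9 did not differ beyond counting error there, whereas Fkbp5 exceeded Errfi1. Fkbp5 had 53.6% of the counts that it shares with Klf9 in ctrl (46.0 to 61.1) and 67.2% in APAP (61.1 to 72.8). Pdk4 was next to last in both libraries.

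How far the genes moved apart was compared pair by pair, by the ratio of their ratios, which no scaling between the libraries can alter. Of 36 pairs, 8 had an interval that excludes 1, without correction for the number of pairs, and Fkbp5 was in 5 of them. It stood 1.65-fold above Tsc22d3 (1.25 to 2.19), 1.77-fold above Klf9 (1.17 to 2.66), 2.32-fold above Pdk4 (1.15 to 4.71), 1.47-fold above Mt1 (1.10 to 1.97) and 1.40-fold above Sgk1 (1.001 to 1.97). Ddit4 stood 1.29-fold (1.09 to 1.52) and Mt2 1.38-fold (1.09 to 1.74) above Tsc22d3, and Mt2 1.48-fold above Klf9 (1.01 to 2.16). Fkbp5, Mt2, Errfi1 and Ddit4 were not set apart from each other. Fkbp5 and Tsc22d3, both used as readouts of the receptor, thus differed from each other, and Fkbp5 made up 12.1% of the counts of both in ctrl (9.89 to 14.5) and 18.5% in APAP (16.1 to 21.1).

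**Figure D3:**
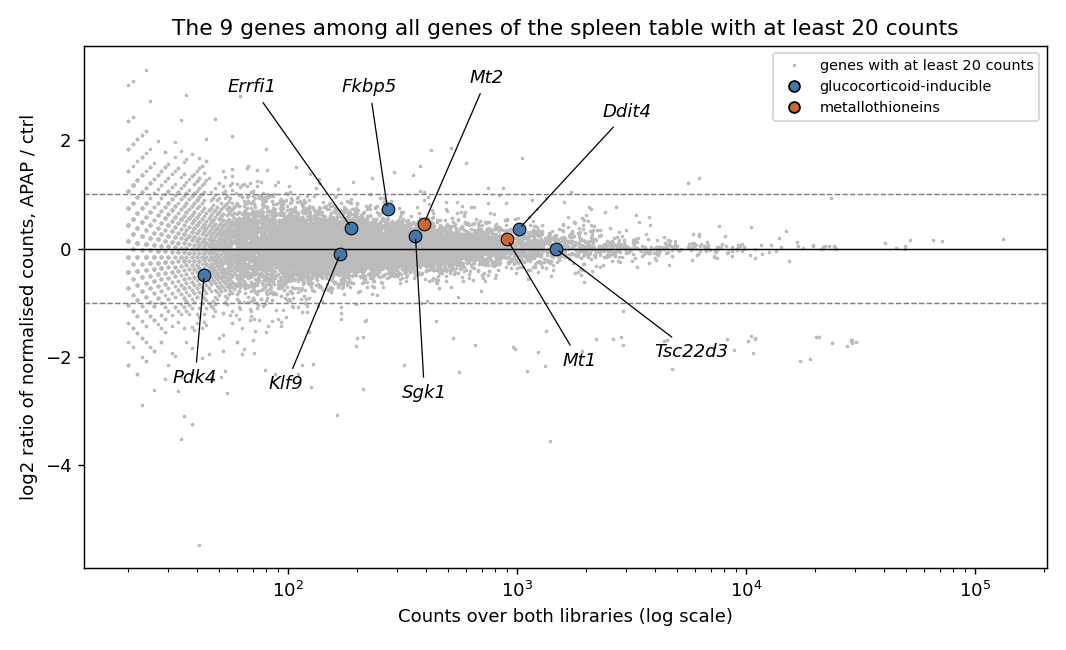
log2 ratio APAP over ctrl against the counts over both libraries (log scale) for all 12929 genes with at least 20 counts (grey; genes at 0 in a library are not drawn) and the 9 genes (blue, glucocorticoid-inducible; orange, metallothioneins). The 9 genes lie between -0.49 (Pdk4) and 0.72 (Fkbp5), inside the dashed lines of a ratio of 2 in either direction.

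None of the 9 genes with 20 counts was more than 3-fold higher, the threshold for induction used in the study, or more than 3-fold lower. Of all 22791 genes, with a 0 replaced by 1, 2.4% were higher and 3.74% lower by that measure. These shares have no minimum count, so they are not matched to the 9 genes. Zbtb16 could not pass it with 1 and 0 counts. The 10 genes together had 0.0773% of ctrl counts (0.0740 to 0.0806, Wilson) and 0.0939% of APAP counts (0.0904 to 0.0975), a ratio of 1.16 (1.09 to 1.22). That sum is dominated by Tsc22d3, Ddit4 and Mt1. The sum of the 8 glucocorticoid-inducible genes alone had a ratio of 1.14 (1.07 to 1.22).

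The receptor gene Nr3c1 had 265 and 252 counts and a ratio of 0.856 (0.717 to 1.02). Of 19 measured genes of the receptor, its ligand supply and its chaperones, 6 were above 1 and 13 below (median log2 ratio -0.10). Intervals lay above 1 for 3 genes (all genes: 9.13%) and below 1 for 3 (all genes: 6.57%), and none met the size rule. H6pd (106 and 198 counts; 1.68, 1.32 to 2.15) and Hsd11b1 (205 and 322; 1.41, 1.18 to 1.69) were higher. Hsd11b1 encodes the enzyme that regenerates active glucocorticoid from its inert keto form inside cells, and H6pd supplies the NADPH it needs. The other one was Hsp90ab1, the constitutive Hsp90 gene, with 2021 and 2407 counts (1.07, 1.01 to 1.14). Lower were the inducible Hsp90 gene Hsp90aa1 (419 and 307; 0.659, 0.567 to 0.766), the cochaperone gene Dnajb1 (246 and 215; 0.787, 0.652 to 0.948) and the constitutive Hsp70 gene Hspa8 (1995 and 2072; 0.935, 0.879 to 0.995). Apart from Hsp90ab1 and Hspa8, which have the most counts in the list, these genes, Nr3c1 included, were named after their values were seen. With at least 1 of the other scalings the intervals of Hsp90ab1, Dnajb1 and Hspa8 include 1.

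Of 24 further measured genes known to be induced by glucocorticoids, 15 were above 1 (all genes: 53.2%), 7 had an interval above 1 (all genes: 9.13%) and 2 had one below 1 (all genes: 6.57%), with a median log2 ratio of 0.19. The first and the last of these counts are near the shares of all genes. This list shares Cd163, named after its value was seen, with the list of red pulp macrophage genes described below. The part of cell composition in the counts of this list was not tested. Cebpd, a transcription factor of the acute phase, alone met the size rule (53 and 139 counts; 2.36, 1.71 to 3.30). Others with intervals above 1, named after their values were seen, were Irs2, an insulin receptor adaptor (34 and 70; 1.85, 1.21 to 2.88), Anxa1, the gene of the anti-inflammatory protein annexin A1 (115 and 204; 1.60, 1.26 to 2.02), Mertk, a receptor for the uptake of dead cells (102 and 168; 1.48, 1.15 to 1.91), and Cebpb (98 and 153; 1.41, 1.08 to 1.83). Per1 and Dusp1, fast targets of the receptor and likewise named afterwards, had intervals that include 1 (1.21, 0.883 to 1.66, and 1.16, 0.892 to 1.52). Angptl4, described above, and Tgfbr2 (1.14, 1.001 to 1.29) complete the 7. The 2 genes with intervals below 1 were Txnip (0.917, 0.842 to 0.997) and Nfkbia (0.899, 0.809 to 0.998), and these as well as Tgfbr2 were named after their values were seen. Each of these 3 intervals includes 1 with at least 1 of the other scalings. Of genes known to be repressed by glucocorticoids, 8 had 20 counts, 3 above 1 and 5 below (median -0.13). Vcam1, which in spleen is also a marker of red pulp macrophages, was at 1.41 (1.32 to 1.51) and the T and NK cell chemokine gene Ccl5 at 0.736 (0.657 to 0.825). Among the 17 measured relatives of the 10 genes, 8 were above 1 (median -0.09). Intervals lay above 1 for 3 of them (all genes: 9.13%) and below 1 for 2 (all genes: 6.57%). Zbtb32, which is related to Zbtb16, met the size rule as lower (18 and 8; 0.400, 0.150 to 0.967). The other lower one was Zbtb20 (181 and 152; 0.756, 0.605 to 0.943), named after its value was seen. Both of these intervals include 1 with at least 1 of the other scalings.

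**Figure D4:**
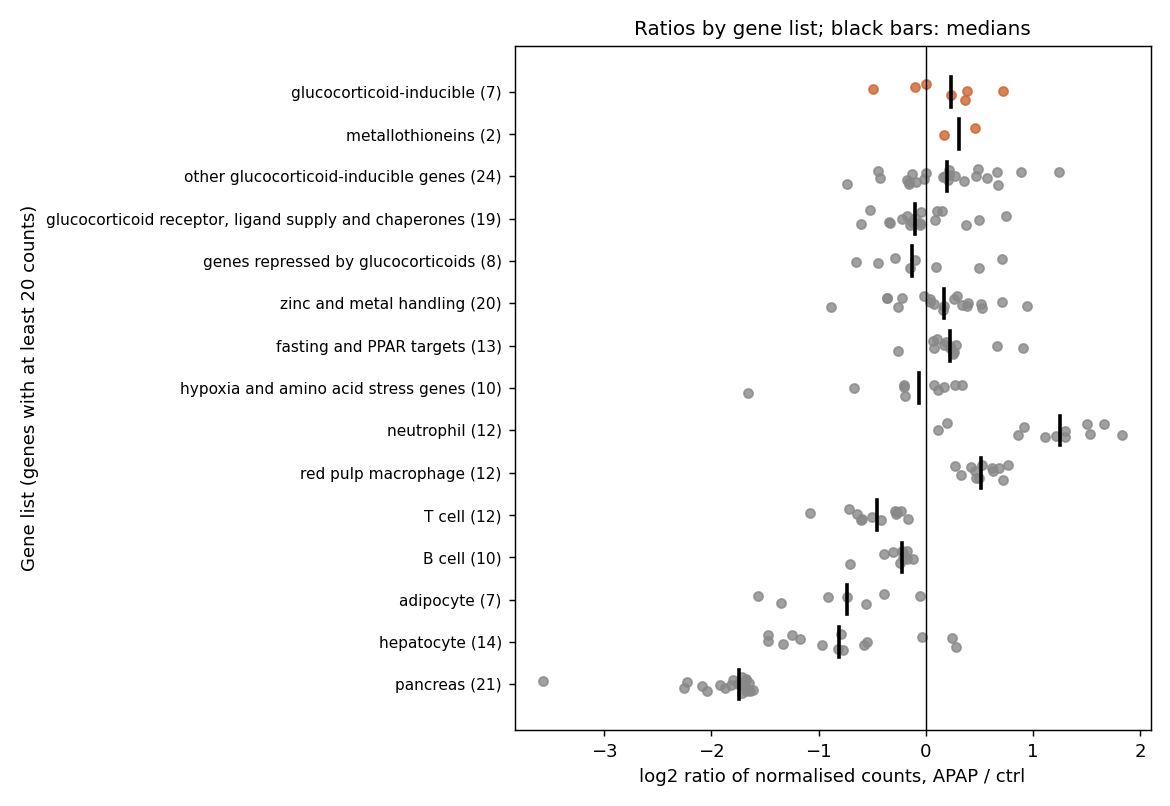
log2 ratio APAP over ctrl of the genes with at least 20 counts in each list, 1 point per gene with the number of genes in parentheses, orange for the 10 described genes and grey for other lists, with the median as a black bar. Medians of the glucocorticoid-inducible genes (0.24) and of the metallothioneins (0.31) lie near 0 compared with those of neutrophil (1.25) and pancreas genes (-1.74).

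RNA of marker genes of several cell types and tissues differed between the pools as well, which is no measure of cell numbers. All 12 neutrophil genes were above 1 (median log2 ratio 1.25), and their share of counts was 0.149% (ctrl) and 0.382% (APAP). All 12 genes of red pulp macrophages (median 0.51, 0.271% and 0.426% of counts) and all 7 of monocytes (0.25) were above 1, as were 9 of 11 erythroid genes (0.15) and 7 of 10 of stroma and endothelium (0.24). All 12 T cell genes (-0.46, 0.0894% and 0.0710%), 9 of 10 NK cell genes (-0.54) and all 10 B cell genes (-0.22) were below 1. The pancreas list took 7.14% of all counts in ctrl and 2.16% in APAP, with all 21 measured genes below 1 (median -1.74) and Gcg, named after its value was seen, at 4 counts in ctrl and 0 in APAP. All 7 adipocyte genes (-0.74) and 12 of 14 hepatocyte genes (-0.81, 0.0714% and 0.0645%) were below 1 too. Metallothioneins are abundant in hepatocytes, and Alb, the albumin gene, named after its value was seen, had 423 and 272 counts (0.579, 0.495 to 0.676). With library totals Fkbp5 was at 1.73, Mt2 at 1.45 and Ddit4 at 1.35. With library totals that leave out the pancreas list, Fkbp5 was at 1.65, Mt2 at 1.37 and Ddit4 at 1.29. CPM and shares of counts rest on totals that include the pancreas list. The part that these differences in marker RNA have in the ratios of the 10 genes and of the other lists was not tested. Most of the 10 genes are active in many cell types.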

How the data were processed

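Splenic RNA of 2 groups, 1 pooled library each, was measured by MACE. The authors removed duplicate reads by unique molecular identifiers, trimmed with cutadapt, clipped poly(A) tails, mapped to mm10 and counted per gene with HTSeq. Globin RNA was left in. For aligner, annotation, versions and strand setting: not given in the sources used here. All results rest on the raw counts that the authors deposited. The column that the authors head as TPM equals CPM computed from the counts, and a further signal column deposited by the authors is the count over the DESeq2 size factor. Columns with averages over the libraries (3) were left aside.

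Size factors were from DESeq2 1.42.0 (R 4.3.3). Each ratio was given with the exact interval from the Clopper-Pearson interval of the gene's share of reads in APAP (Python 3.11.15, scipy 1.17.1). For a count of 0 a limit of 3 counts was set. Pairs of genes were compared by the conditional odds ratio. Intervals cover counting error only. The size rule asked for 20 counts, a ratio of 2 either way and an interval that excludes 1. The scripts were tested on simulated data.

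Genes and the 9 pathway and 11 cell type lists were chosen with earlier results of these data known. Named were the 10 genes, some of their relatives, a choice not fixed beforehand, and in each pathway list up to 4 genes that met the size rule. Where none did, the 2 genes with most counts were named. Cell type lists are given by their medians and counts. Other genes are marked as named after their values were seen. Tried as alternatives were 5 other scalings (among them TMM, edgeR 4.0.16), other minimum counts and other thresholds.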

Additional observations from a re-analysis of the deposited data

How the results depend on the processing

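Another scaling shifts all log2 ratios alike, here by -0.03 to 0.09. The ratios of the 9 genes stayed inside their counting intervals under all 5. Of 3 genes with an interval above 1, library totals made 5, and leaving haemoglobin and immunoglobulin out of them made 6, while the other scalings left 3. At a ratio of at least 1.5 the size rule was met by 1 gene (Fkbp5), by construction of the lower threshold. In the lists, counts of intervals that exclude 1 hold for the DESeq2 size factors only. The intervals of Hsp90ab1, Hspa8, Dnajb1, Tgfbr2, Txnip, Nfkbia, Slc39a1, Atf4, Zbtb32 and Zbtb20 each include 1 with at least 1 other scaling. Intervals of other listed genes can come to exclude 1. The first value of each pair that follows is the median log2 ratio by library totals, the second by totals from which haemoglobin and immunoglobulin were taken out. They were -0.024 and -0.0078 for the receptor and its chaperones, 0.58 and 0.60 for red pulp macrophages, -0.15 and -0.13 for B cells and -1.67 and -1.65 for pancreas genes. With the latter totals it was 0.28 for other glucocorticoid-inducible genes, 0.34 for monocytes, -0.37 for T cells and 0.33 for stroma and endothelium. For pancreas genes it was -1.77 with TMM factors and with the upper quartile and -1.75 without a minimum count. Ratios were held to their counting intervals and counts to a change of at most 1.5-fold. List medians were held to a margin set from the interval widths and number of their genes. Of 239 values recomputed, 221 stayed within these limits. Of 21 list medians, 1 changed its sign with the scaling, that of hypoxia and amino acid stress genes. No paired analysis was possible because there is a single library per group, and for the same reason no library could be left out. Depth limits Zbtb16 and Pdk4 most.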
